A study of Mus musculus with 2 samples.

Results

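A set of 10 genes of the canonical Wnt pathway were followed through single cells of the mouse tongue epithelium. They are the transcription factors Lef1 and Tcf7, the target Axin2, the R-spondin receptors Lgr4, Lgr5 and Lgr6, and the secreted or membrane-bound modulators Notum, Apcdd1, Wif1 and Sostdc1. They were taken by gene symbol, and all 10 were found among the 32285 genes of the deposited tables. The tissue came from male B57BL/6 mice of 8 to 12 weeks, in 1 library at Zeitgeber time 12 (ZT12, lights off by the usual convention) and 1 library at ZT0 (lights on). The minced epithelium was dissociated with TrypLE, a trypsin-like enzyme. Living cells were sorted as negative for the dye 7-AAD and taken through 10x Genomics 3' v2 libraries. How many mice each library stands for is not given in the labels, and the spread between animals is therefore unknown.

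In the canonical Wnt pathway, a Wnt ligand binds a Frizzled receptor with LRP5 or LRP6, beta-catenin escapes degradation, and it joins TCF and LEF factors at target genes. Several targets feed back on the pathway. AXIN2 is a scaffold of the complex that degrades beta-catenin, NOTUM is an enzyme that strips the lipid from Wnt, and APCDD1 is a membrane protein that binds Wnt and LRP. WIF1 binds Wnt outside the cell and SOSTDC1 (also called Wise or ectodin) acts on both Wnt and BMP signals. In skin and its appendages these genes mark cells that receive Wnt signals, and LGR receptors, which bind R-spondins and prolong Frizzled at the surface, mark several epithelial stem cell pools.

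All 10 members are protein-coding genes of the mm10 assembly. Lef1 lies on chromosome 3 (chr3:131110471-131224356, plus strand), Tcf7 on chromosome 11 (chr11:52252371-52283014, minus strand) and Axin2 on chromosome 11 (chr11:108920349-108950783, plus strand). Lgr4 lies at chr2:109917647-110014257 (plus), Lgr5 at chr10:115450311-115587780 (minus) and Lgr6 at chr1:134983301-135105276 (minus). Notum lies at chr11:120653788-120661175 (minus), Wif1 at chr10:121033960-121100650 (plus) and Sostdc1 at chr12:36314139-36318452 (plus). Because several of these genes moved together across cell clusters, the 250 bases before an annotated start site are shown for 5 of the 6 members with an entry in the RefSeq promoter set of the same assembly (GRCm38.p6). The windows of Tcf7 and those of Lef1 starts 2 and 3, which held no match to the motif searched, are not printed. Capitals mark TCAAAG, the core of the TCF and LEF recognition sequence, searched as TCAAAG and, on the other strand, CTTTGA. Lef1 has 4 listed start sites. The most upstream (start 1, chr3:131110047-131110296, plus strand) and start 4, which lies inside the gene (chr3:131156044-131156293, plus strand), are given with Axin2 (chr11:108920099-108920348, plus), Lgr4 (chr2:109917397-109917646, plus), Lgr6 (chr1:135105277-135105526, minus) and Wif1 (chr10:121033754-121034003, plus).
Lef1 start 1: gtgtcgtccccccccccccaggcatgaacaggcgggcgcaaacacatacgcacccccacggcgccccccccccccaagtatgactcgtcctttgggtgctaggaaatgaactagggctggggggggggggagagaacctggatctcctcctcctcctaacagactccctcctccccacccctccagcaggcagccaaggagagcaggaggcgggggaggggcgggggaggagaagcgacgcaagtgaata
Lef1 start 4: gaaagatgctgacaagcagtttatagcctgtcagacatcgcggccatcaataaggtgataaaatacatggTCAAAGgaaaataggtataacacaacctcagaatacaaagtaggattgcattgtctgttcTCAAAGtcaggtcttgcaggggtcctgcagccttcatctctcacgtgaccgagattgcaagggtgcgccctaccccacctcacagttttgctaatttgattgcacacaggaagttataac
Axin2: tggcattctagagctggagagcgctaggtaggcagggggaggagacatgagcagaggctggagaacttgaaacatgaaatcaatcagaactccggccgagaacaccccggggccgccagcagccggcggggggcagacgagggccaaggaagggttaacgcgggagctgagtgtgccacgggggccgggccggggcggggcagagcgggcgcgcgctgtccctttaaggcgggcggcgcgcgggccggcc
Lgr4: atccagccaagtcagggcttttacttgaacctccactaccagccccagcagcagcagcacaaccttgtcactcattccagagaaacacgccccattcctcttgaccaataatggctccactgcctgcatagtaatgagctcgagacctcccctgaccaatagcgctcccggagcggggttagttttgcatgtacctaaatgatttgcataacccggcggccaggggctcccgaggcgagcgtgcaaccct
Lgr6: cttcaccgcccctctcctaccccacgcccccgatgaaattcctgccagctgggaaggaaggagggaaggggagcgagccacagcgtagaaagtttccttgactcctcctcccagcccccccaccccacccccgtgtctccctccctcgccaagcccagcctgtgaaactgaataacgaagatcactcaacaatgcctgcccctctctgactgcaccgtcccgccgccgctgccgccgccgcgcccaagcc
Wif1: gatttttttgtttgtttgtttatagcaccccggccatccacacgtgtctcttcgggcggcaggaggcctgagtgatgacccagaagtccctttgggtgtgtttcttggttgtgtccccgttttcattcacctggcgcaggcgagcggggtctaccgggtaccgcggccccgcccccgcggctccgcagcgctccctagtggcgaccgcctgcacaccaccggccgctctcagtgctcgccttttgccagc
Of the 10 windows listed for 6 members (4 for Lef1, 2 for Tcf7 and 1 for each of the others), 1 held the motif. It was Lef1 start 4, with 2 matches on the plus strand beginning 180 and 120 bases before the start. Of all 32851 promoter windows of this length, 13.8% held at least 1 match. A 3' library does not tell which start site was used, and a window without these letters says nothing about binding elsewhere.

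After filtering, the ZT12 library held 2622 cells with a median of 23088 UMIs (unique molecular identifiers, 1 per captured transcript), and the ZT0 library 1593 cells with a median of 28365. They shared 2 cell barcodes. Levels are given as CPM, the UMIs of a gene per 1000000 UMIs of the same cells. To keep depth from setting the share of cells in which a gene is seen, shares were taken after thinning every cell to 1 fixed number of UMIs. This left 2361 cells at ZT12 and 1461 at ZT0, with 261 and 132 shallower cells left out. Cells of both libraries were grouped into 19 clusters without using the 10 members or the other Wnt pathway genes, so these genes did not define the clusters, although genes that vary with them did. Clusters were given a class with the ending -like from marker genes, and such rebuilt classes may differ from the study's own. The 17 lymphocyte-like and 13 myeloid-like cells were the immune cells. Clusters 4 (353 cells at ZT12, 9 at ZT0), 8 (7 and 217), 9 (32 and 184) and 12 (1 and 172) came mostly from 1 library. With 1 library per time no test is possible, and intervals cover counting error only.

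The members fell into distinct places in the epithelium. Lef1, Axin2, Lgr6, Notum, Apcdd1 and Wif1 were concentrated in clusters 10 and 5, which held 11.6% of all cells. Of all UMIs counted in both libraries, these clusters held 73.3% of those of Lef1, 79.7% of Axin2, 81.7% of Lgr6, 89.5% of Notum, 63.1% of Apcdd1 and 92.0% of Wif1. Lgr4 was broader, with 32.2% of its UMIs there. Tcf7 and Sostdc1 lay elsewhere, with 51.8% and 66.3% of their UMIs in the basal-like clusters 3 and 7 (14% of cells) and 15.8% and 2.25% in clusters 10 and 5.

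Cluster 10 (96 cells at ZT12, 105 at ZT0) was closest to basal cells by its markers. It expressed Krt5, a basal keratin, at 4811 CPM in ZT12 cells and 4784 CPM in ZT0 cells, and in 100% of the cells of each. Its leading gene was Dcn, which encodes the proteoglycan decorin and is listed among fibroblast markers, at 4595 CPM at ZT12 and 5091 CPM at ZT0. The other 5 fibroblast markers, Col1a1, Col1a2, Col3a1, Lum and Pdgfra, were at 0 UMIs in this cluster. Because Dcn stands among its leading genes the cluster was left unnamed. Runx2, a transcription factor best known from bone, followed at 168 CPM at ZT12 and 194 CPM at ZT0. The members Lef1, Apcdd1, Lgr6 and Notum were themselves among its 10 leading genes, although they took no part in the clustering.

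Cluster 5 (183 cells at ZT12, 107 at ZT0) was differentiated-like, with Krt13, the main keratin of the oral suprabasal layers, at 25520.4 CPM at ZT12 and 21405 CPM at ZT0. Krt76, a keratin of oral differentiation, stood at 2560.1 CPM at ZT12 and 3128 CPM at ZT0, and Tchh, which encodes trichohyalin, at 1715 CPM at ZT12 and 1485 CPM at ZT0. Cluster 5 shared Dcn (1609 CPM at ZT12 and 1934 CPM at ZT0) and Runx2 (131 CPM at both times) with cluster 10, and the same 5 fibroblast markers were at 0. Neither gene was particular to this pair. Over both libraries the 6 fibroblast markers summed to 4877 CPM in cluster 10 and 1752 CPM in cluster 5. Their sum was 1381 CPM in cluster 14 and 1242 CPM in cluster 9. In cluster 14, as in most clusters, 5 of the 6 were at 0. Runx2 also stood at 93.1 CPM in cluster 15.

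**Figure D1:**
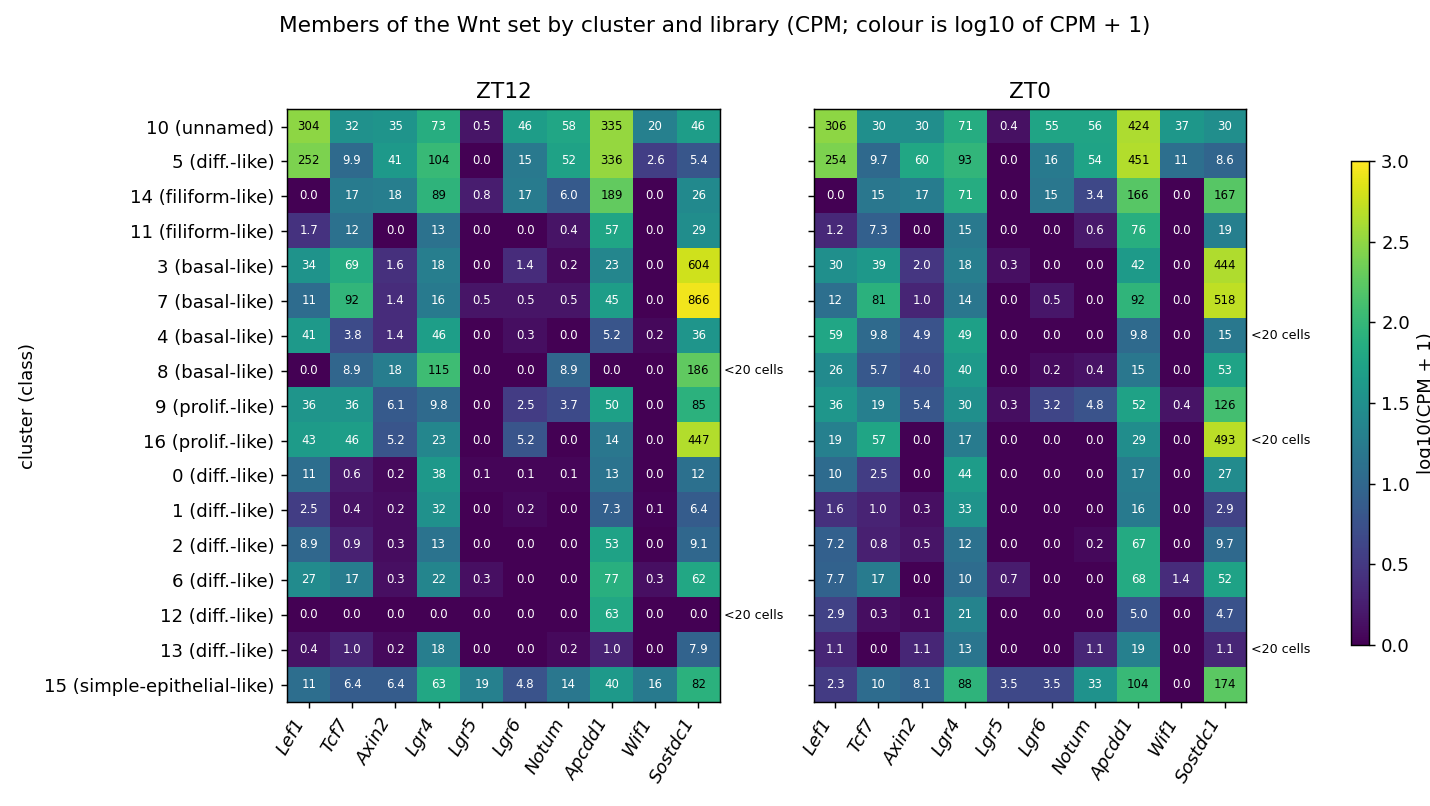
Heat map of the 10 members (columns) in 17 clusters of at least 50 cells (rows, with the class each was given), ZT12 on the left and ZT0 on the right. Numbers are CPM and the colour is log10 of CPM plus 1. Lef1, Axin2, Notum and Apcdd1 are high in clusters 10 and 5 in both libraries, Tcf7 and Sostdc1 in clusters 3 and 7, and Lef1 is at 0 in cluster 14.

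Lef1, which carries beta-catenin to its targets, reached 304 CPM at ZT12 and 306 CPM at ZT0 in cluster 10. In cluster 5 it stood at 252 CPM at ZT12 and 254 CPM at ZT0. These levels exceeded every other cluster with at least 50 cells, of which cluster 4 came next at 41.8 CPM over both libraries, and the counting intervals of clusters 10 and 5 did not overlap each other or that of cluster 4. Lef1 was seen in 85.4% of ZT12 cells (95% exact binomial interval 76.3 to 92.0) and 78.8% of ZT0 cells (69.7 to 86.2) of cluster 10. The shares in cluster 5 were 88.7% of ZT12 cells and 85.1% of ZT0 cells. In cluster 13, cornified cells led by Crct1 and Sprr3, it was seen in 0% of 126 ZT12 cells and 0% of 12 ZT0 cells.

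Tcf7, the other member of the same factor family, was highest, among clusters of at least 50 cells, in cluster 7 at 92.4 CPM at ZT12 and 81.1 CPM at ZT0, followed by cluster 3 at 68.8 CPM at ZT12 and 38.8 CPM at ZT0. Cluster 10 had 32.2 CPM at ZT12 and 30.3 CPM at ZT0, and cluster 5 had 9.90 CPM at ZT12 and 9.68 CPM at ZT0. Tcf7 was therefore present with Lef1 in cluster 10 and was lower in the differentiated-like cluster 5, where Lef1 was still high. Tcf7 is also a T cell factor, and the 17 lymphocyte-like cells held 7 UMIs of it in 6 ZT12 cells and 9 UMIs in 11 ZT0 cells, or 99.3 CPM over both libraries (56.7 to 161).

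Axin2, widely used as a reporter of the pathway, was highest in cluster 5 at 40.6 CPM at ZT12 and 60.3 CPM at ZT0, then in cluster 10 at 35.1 CPM at ZT12 and 29.5 CPM at ZT0. It was seen in 35.1% of ZT12 cells and 42.6% of ZT0 cells of cluster 5, and in 27% of ZT12 cells and 18.3% of ZT0 cells of cluster 10. In the basal-like class as a whole, which leaves out cluster 10, Axin2 stood at 1.60 CPM at ZT12 and 2.81 CPM at ZT0. Most basal-like cells thus had little or no detected Axin2.

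The 3 receptors differed in breadth. Lgr4 was present in every cluster of at least 50 cells, with a lowest level of 12.6 CPM and a median of 28.0 CPM across the 17 clusters, and its top value was 104 CPM at ZT12 and 93.0 CPM at ZT0 in cluster 5. Lgr6, a stem cell marker of skin appendages and of tongue taste lineages, was highest in cluster 10 at 46.4 CPM at ZT12 and 55.0 CPM at ZT0. It was lower in cluster 5, at 15.3 CPM at ZT12 and 16.3 CPM at ZT0, and at most 1.38 CPM in clusters 3 and 7 at either time. Lgr5, which marks intestinal and posterior taste stem cells, was close to absent, with 27 UMIs in 16 of 4215 cells. The cluster with most of them was cluster 15, simple-epithelial-like cells led by Ltf and Wfdc18, where 3 of 34 ZT12 cells and 2 of 34 ZT0 cells carried it.

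The secreted enzyme Notum was at close levels in both clusters and both libraries, with overlapping counting intervals over both libraries. Cluster 10 had 58.1 CPM at ZT12 and 55.7 CPM at ZT0, and cluster 5 had 52.3 CPM at ZT12 and 53.7 CPM at ZT0. It was seen in 31.5% of ZT12 cells and 31.7% of ZT0 cells of cluster 10, and in 43.5% of ZT12 cells and 44.6% of ZT0 cells of cluster 5. In cluster 3 it was seen in 0% of 235 ZT12 cells and 0% of 115 ZT0 cells. In the basal-like class it stood at 0.218 CPM at ZT12 and 0.201 CPM at ZT0. Beyond clusters 10 and 5, cluster 15 came next, with 14.5 CPM at ZT12 and 32.6 CPM at ZT0 in 34 cells each.

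Apcdd1 had a wider gradient. It stood at 335 CPM at ZT12 and 424 CPM at ZT0 in cluster 10, and at 336 CPM at ZT12 and 451 CPM at ZT0 in cluster 5, where 91.7% of ZT12 cells and 99.0% of ZT0 cells carried it. Cluster 14 came next, at 189 CPM at ZT12 and 166 CPM at ZT0. The median over the 17 clusters was 52.1 CPM, so Apcdd1 was detectable in most of the epithelium.

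Wif1 was rare. It had 226 UMIs in 52 cells in all, and in cluster 10 it stood at 19.5 CPM at ZT12 and 37.3 CPM at ZT0. In all, 6 of 96 ZT12 cells and 11 of 105 ZT0 cells of cluster 10 carried it, and in these libraries the 5 highest cells held 95% of its UMIs at ZT12 and 82.2% at ZT0. In cluster 7 and cluster 3 it was at 0 UMIs in both libraries.

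Sostdc1 was high in other basal cells. It was highest in cluster 7, at 866 CPM at ZT12 and 518 CPM at ZT0, and in cluster 3, at 604 CPM at ZT12 and 444 CPM at ZT0. Cluster 7 was led by Trabd2b, Nrp2, Npnt and Sema3c and cluster 3 by Pappa, Hpgd and Wfdc2. It was seen in 88.5% of ZT12 cells and 75% of ZT0 cells of cluster 7, against 21.3% of ZT12 cells and 20.2% of ZT0 cells of cluster 10. In cluster 13 it was seen in 6.35% of 126 ZT12 cells and 0% of 12 ZT0 cells.

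**Figure D2:**
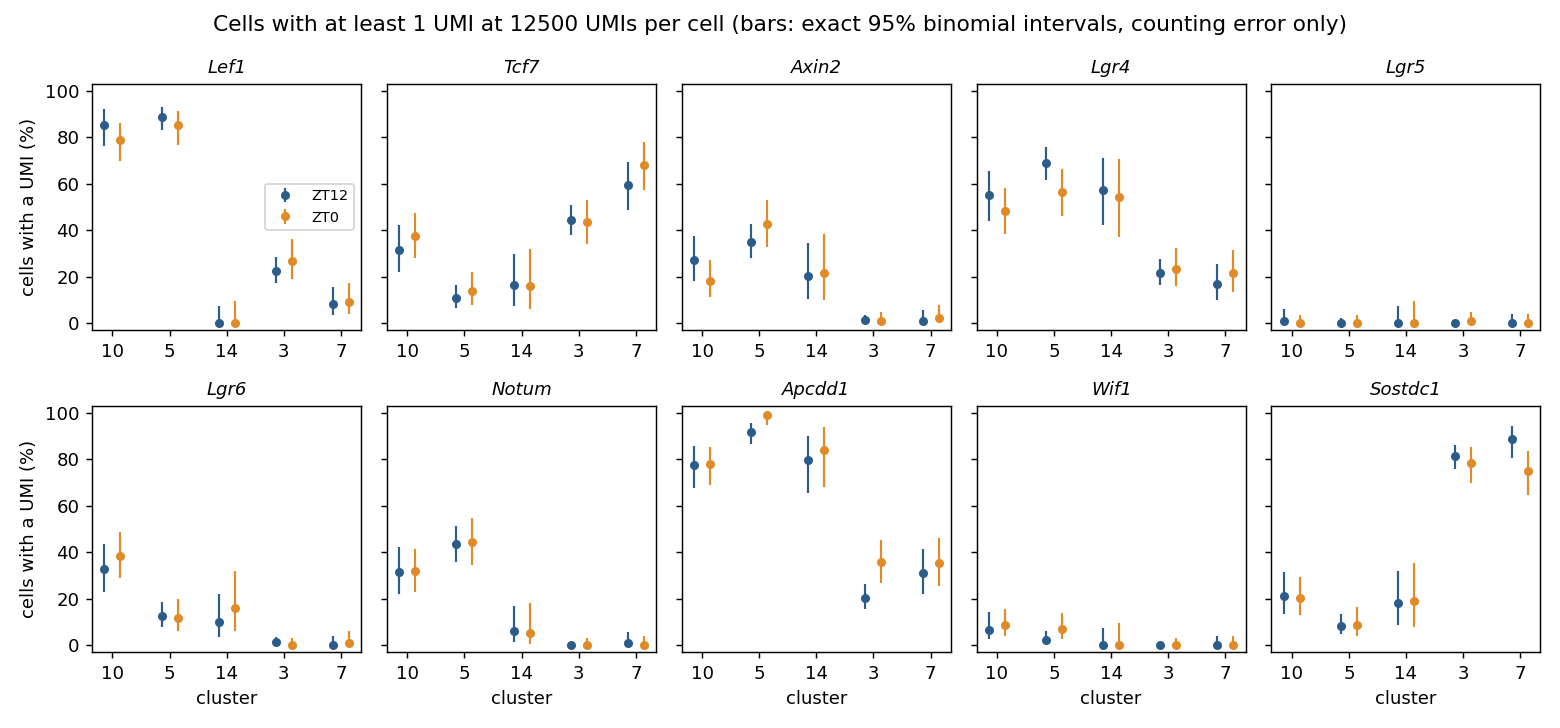
Share of cells with at least 1 UMI of each member in clusters 10, 5, 14, 3 and 7, after thinning cells to a common number of UMIs, with ZT12 (blue) left of ZT0 (orange) and bars for exact 95% binomial intervals. Lef1 lies between 78.8% and 88.7% in clusters 10 and 5 and at 0% in cluster 14, while Sostdc1 lies between 75% and 88.5% in clusters 3 and 7.

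The filiform papilla cells showed a partial version of this set. Cluster 14 (61 cells at ZT12, 41 at ZT0) carried the hair-type keratins Krt84 and Krt36 and the factor Hoxc13. It had Axin2 at 18.1 CPM at ZT12 and 17.2 CPM at ZT0, Lgr6 at 16.6 CPM at ZT12 and 14.6 CPM at ZT0, and Lgr4 at 89.0 CPM at ZT12 and 71.5 CPM at ZT0. Lef1 was at 0 of 1325153 UMIs at ZT12 and 0 of 1160856 UMIs at ZT0, which allows levels of up to 2.26 CPM and 2.58 CPM when a count of 0 is read as at most 3 counts. Wif1 was also at 0 UMIs in both libraries, and Notum stood at 6.04 CPM at ZT12 and 3.45 CPM at ZT0. The other filiform-like cluster, cluster 11 (124 cells at ZT12, 76 at ZT0), had no Axin2 or Lgr6 UMI, and had Apcdd1 at 56.7 CPM at ZT12 and 75.7 CPM at ZT0.

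A finer clustering, at a resolution of 1.5 in place of 1.0, separated these cells into groups with different keratin levels. Of the 201 cells of cluster 10, 57 ZT12 cells and 68 ZT0 cells formed finer cluster 17, in which Krt15, a basal keratin, stood at 6370 CPM at ZT12 and 6157 CPM at ZT0. Another 59 joined finer cluster 3 and 13 joined finer cluster 9, groups made mostly of cells from outside cluster 10. Over both libraries Lef1 stood at 54.5 CPM in finer cluster 3 and 50.6 CPM in finer cluster 9, against 379 CPM in finer cluster 17, and Notum at 0.169 CPM and 3.81 CPM, against 78.8 CPM. Sostdc1 stood at 331 CPM and 567 CPM there, against 28.1 CPM in finer cluster 17. Wif1, unlike Notum, was seen in finer cluster 3, at 9.98 CPM, with 0 CPM in finer cluster 9 and 25.6 CPM in finer cluster 17. Finer cluster 17 held all 40 ZT12 UMIs of Wif1 in cluster 10. The Wif1 UMIs of cluster 10 outside it thus came from ZT0 alone, where 11 cells of cluster 10 carried Wif1 in all. Cluster 5 gave finer cluster 16 (93 and 44 cells), with Krt13 at 23327 CPM at ZT12 and 17529 CPM at ZT0 and little Krt76 (119.7 and 34.2 CPM). It also gave finer cluster 15 (90 and 63 cells), in which Krt76 reached 4418 CPM at ZT12 and 4729.8 CPM at ZT0.

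Members differed in level between finer clusters 17, 16 and 15, whose order in differentiation was not tested. Lef1 was at 371 CPM at ZT12 and 385 CPM at ZT0 in finer cluster 17 and at 378 CPM at ZT12 and 421 CPM at ZT0 in finer cluster 16. It was lower in the Krt76-high finer cluster 15, at 156 CPM at ZT12 and 167 CPM at ZT0, with intervals apart from the other groups in both libraries. Lgr6 was instead high in the basal group alone, at 61.1 CPM at ZT12 and 72.1 CPM at ZT0, against 12.1 CPM at ZT12 and 14.8 CPM at ZT0 in finer cluster 16. Axin2 in the Krt76-high group stood at 45.9 CPM at ZT12 and 65.1 CPM at ZT0, against 50.4 CPM at ZT12 and 39.2 CPM at ZT0 in the basal group. The counting intervals of these 2 groups overlapped at ZT12, and at ZT0 the Krt76-high group was higher with intervals apart. Tcf7 stood at 42.0 CPM at ZT12 and 36.0 CPM at ZT0 in finer cluster 17, and at 8.0 CPM at ZT12 and 7.7 CPM at ZT0 in finer cluster 15.

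Cluster 14 was likewise split. Finer cluster 21 (38 cells at ZT12, 27 at ZT0) held Krt5 at 5908 CPM at ZT12 and 4849.5 CPM at ZT0 and Hoxc13 at 374 CPM at ZT12 and 321 CPM at ZT0, with Krt84 at 18.5 and 6.1 CPM. Finer cluster 22 (27 and 14 cells) held Krt84 at 12089 CPM at ZT12 and 10924 CPM at ZT0. Apcdd1 was at 219 CPM at ZT12 and 199 CPM at ZT0 in finer cluster 21, and at 162 CPM at ZT12 and 124 CPM at ZT0 in finer cluster 22. Lef1 was at 0 UMIs in both. Tcf7 and Lgr4 were higher in the Krt5-expressing group, Lgr4 at 117 CPM at ZT12 and 97.0 CPM at ZT0 against 55.1 CPM at ZT12 and 37.9 CPM at ZT0 in the Krt84-expressing group.

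**Figure D3:**
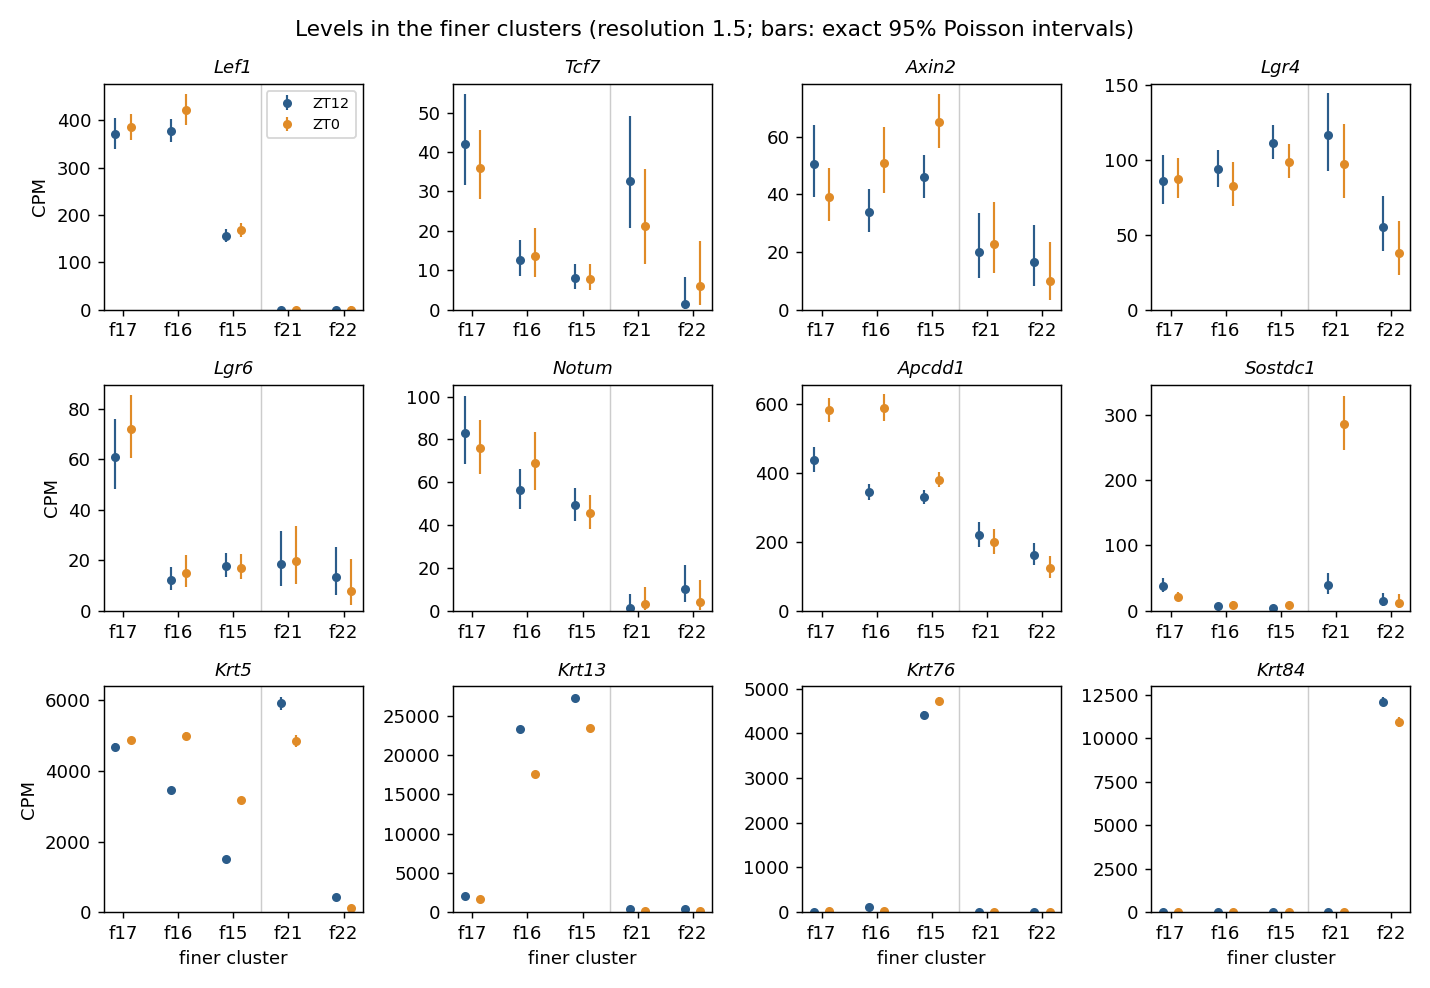
Levels (CPM, linear axes) of 8 members and 4 keratins in finer clusters 17, 16 and 15 (from clusters 10 and 5) and 21 and 22 (from cluster 14), ZT12 (blue) left of ZT0 (orange), with exact 95% Poisson intervals. Lef1 is 371 CPM at ZT12 and 385 CPM at ZT0 in f17, 378 CPM at ZT12 and 421 CPM at ZT0 in f16, and 156 CPM at ZT12 and 167 CPM at ZT0 in f15, Lgr6 is high in f17 alone, and Lef1 is at 0 in f21 and f22.

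Co-detection in single cells followed this map. Over all but the immune cells, after thinning, the share of cells with the second member was higher among cells with the first in 22 of 45 pairs in both libraries, with exact intervals apart, and lower in 1. Pairs of other genes were not counted for comparison, so the number is not a trait of this set. Notum was seen in 46.9% of 113 Axin2-positive ZT12 cells and 2.54% of the 2245 others, and at ZT0 in 41.8% of 98 Axin2-positive cells and 4.15% of the 1351 others. The pair seen together less often was Notum and Sostdc1. Sostdc1 was seen in 15.5% of 110 Notum-positive ZT12 cells and 25.7% of the 2248 others, and at ZT0 in 10.3% of 97 Notum-positive cells and 29.8% of the 1352 others.

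Within the basal-like class and cluster 10 together, Sostdc1 was also seen less often in cells with Lef1, Lgr4 or Lgr6. At ZT12, 34.5% of 232 Lef1-positive cells carried Sostdc1, against 57.2% of 509 Lef1-negative cells, and at ZT0 31.1% of 164 against 52.0% of 350. Tcf7 went the other way, with Sostdc1 in 78.8% of 203 Tcf7-positive ZT12 cells and 39.2% of 538 others, and in 65.0% of 163 Tcf7-positive ZT0 cells and 36.2% of 351 others. The pool joins cluster 10, with Sostdc1 at 36.8 CPM over both libraries, to clusters such as 3 and 7, at 544 and 700 CPM. The part of such differences between clusters in these shares was not tested. Inside cluster 10 alone no pair with Sostdc1 met the rule in both libraries.

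Inside cluster 10 alone, 3 pairs met the same rule, Axin2 with Lgr6, Axin2 with Notum, and Notum with Apcdd1. Lgr6 was seen in 62.5% of 24 Axin2-positive ZT12 cells (40.6 to 81.2) and 21.5% of 65 others (12.3 to 33.5), and in 73.7% of 19 Axin2-positive ZT0 cells (48.8 to 90.8) and 30.6% of 85 others (21 to 41.5). Cluster 10 is not uniform, since its cells were split mainly between finer clusters 17 and 3. Over both libraries Axin2, Lgr6 and Notum stood at 43.8, 67.6 and 78.8 CPM in finer cluster 17. In finer cluster 3, most of which lay outside cluster 10, they stood at 1.69, 2.37 and 0.169 CPM. The part of this split in the 3 pairs was not tested. In cluster 5 no pair met the rule in both libraries. Cells with 3 or more of Lef1, Axin2, Lgr6, Notum, Apcdd1 and Wif1 numbered 135 at ZT12 and 130 at ZT0, and 97.0% and 89.2% of them lay in clusters 10 and 5. The genes in this list are the ones described above as concentrated in clusters 10 and 5. High shares in these clusters therefore follow largely from the choice of genes and are not separate evidence. The cells counted also share library, class and depth, so the shares are a description.

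Across the 17 clusters, taken over both libraries, levels of some members ran closely together. On the log2 scale of CPM plus 1, Pearson's r was 0.94 between Axin2 and Lgr6, 0.90 between Notum and Wif1, 0.88 between Axin2 and Notum and 0.88 between Tcf7 and Sostdc1, but 0.54 between Lef1 and Axin2 and 0.43 between Lef1 and Tcf7. Among 7902 genes of at least 10 CPM, the one most like Notum was Runx2 (r = 0.95), which was also nearest to Wif1 (0.90) and among the 5 nearest to Axin2 and Lgr6. Nrg1, an EGF-family ligand, was nearest to Lef1 (0.89), Pcdh19 to Axin2 (0.92), Anxa8 to Apcdd1 (0.89) with Wnt5a also among its nearest 5 (0.88), and Tusc3 to Sostdc1 (0.95). For Tcf7 the nearest 5 included Smad7 (0.93), an inhibitor of TGF-beta signals, and Sema3c (0.89), a secreted guidance factor. The clusters share libraries and differ in depth, and these r values carry no test. They also do not describe the finer clusters, where Wif1 stood at 9.98 CPM in finer cluster 3 with Notum at 0.169 CPM. That Wif1 level rests on few cells, and its part from cluster 10 on the ZT0 library alone.

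The rest of the pathway, with 99 of 101 listed gene names found, gave the setting. The names not found, Tiki2 and Troy, are aliases of Trabd2b and Tnfrsf19, which were found. Among ligands, Wnt4 stood at 433 CPM at ZT12 and 389 CPM at ZT0 over all cells, with similar levels in cluster 10 (432 and 505 CPM) and lower ones in cluster 5 (262 and 294 CPM). Wnt10a stood at 203 CPM at ZT12 and 207 CPM at ZT0 in cluster 7, at 102 CPM at ZT12 and 124 CPM at ZT0 in cluster 10, and at 2.4 CPM at ZT12 and 3.7 CPM at ZT0 in cluster 5. Wnt3 was nearly restricted to cluster 14, with 81.5 CPM at ZT12 and 115 CPM at ZT0 there and at most 3.2 CPM in any other cluster over both libraries, and Wnt5a was also highest there, at 150.2 CPM at ZT12 and 147 CPM at ZT0. Rspo1, Rspo2, Rspo3 and Rspo4, the ligands of the LGR receptors, were at 0 UMIs.

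Other genes of the list of extracellular inhibitors, some secreted and some membrane-bound, had places of their own. Dkk1, Dkk2, Frzb and Sost were at 0 UMIs. Trabd2b, a membrane protease that cuts Wnt, was highest in cluster 7 at 286 CPM at ZT12 and 255 CPM at ZT0, against 9.8 CPM at ZT12 and 12.2 CPM at ZT0 in cluster 10. Dkk3 was highest in cluster 7 (116 and 102 CPM), and Sfrp1 was highest in cluster 8 (152 CPM over both libraries). The membrane pseudoreceptor Bambi was placed in this list without a test of its effect on Wnt signals. Bambi was highest in cluster 5 (173 and 185 CPM), with 140.1 CPM at ZT12 and 137 CPM at ZT0 in cluster 10. Cluster 7 thus combined Wnt10a, Trabd2b, Dkk3 and Sostdc1 with Axin2, Lgr6 and Notum each at 1.44 CPM or less in both libraries. Not all pathway genes were low there. Among clusters of at least 50 cells it was highest for Tcf7 (87.0 CPM over both libraries) and the beta-catenin gene Ctnnb1 (651 CPM). It was second for the listed targets Ccnd1 (960 CPM) and Tnfrsf19 (54.0 CPM).

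Of the genes that act on receptors and in the nucleus, Znrf3, a ubiquitin ligase that removes Frizzled and is itself a Wnt target, was highest in cluster 10 (38.1 CPM at ZT12 and 37.3 CPM at ZT0). Cluster 14 was close for Znrf3 (37.7 and 31.9 CPM), with overlapping counting intervals over both libraries. Rnf43, a relative of Znrf3, was highest in cluster 14 (39.2 and 37.9 CPM). Bcl9, a co-factor of beta-catenin, stood at 45.3 CPM at ZT12 and 49.5 CPM at ZT0 in cluster 5 and at 47.8 CPM at ZT12 and 45.8 CPM at ZT0 in cluster 10, against a median of 19.5 CPM over the 17 clusters. Of the common targets listed, Tnfrsf19 was highest in cluster 10 (76.6 CPM at ZT12 and 66.1 CPM at ZT0), whereas Ccnd1 was highest in cluster 15 and Ascl2 in cluster 14 over both libraries. Ctnnb1, which encodes beta-catenin, stood at 470.0 CPM at ZT12 and 489 CPM at ZT0 in cluster 10 and at 350 CPM at ZT12 and 365 CPM at ZT0 in cluster 5. Its median over the 17 clusters was 390.3 CPM, and it was highest in cluster 7 at 651 CPM over both libraries.

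The second question was whether the members differed between the times of day. The size rule asked for a mean level of 5 CPM or more, a difference of 2-fold or more in CPM plus 1, and a ratio of ZT12 over ZT0 whose exact 95% interval left out 1. Over all cells 0 of the 7 members at that level met it, where 2.76% of 9541 genes did. Apcdd1 came nearest, at 62.9 CPM at ZT12 and 102 CPM at ZT0 (ratio 0.619, 0.594 to 0.645). Axin2 stood at 5.59 CPM at ZT12 and 9.20 CPM at ZT0 (ratio 0.607), Notum at 6.64 CPM at ZT12 and 9.44 CPM at ZT0 (ratio 0.704), and Lef1 at 43.7 CPM at ZT12 and 52.8 CPM at ZT0 (ratio 0.826). Lgr4, Tcf7 and Sostdc1 had ratios of 1.04, 0.986 and 1.05. The median log2 ratio was -0.27 over the 7 members and -0.03 over all genes tested. Without the 4 clusters that came mostly from 1 library Apcdd1 did meet the rule, at 69.5 CPM at ZT12 and 148 CPM at ZT0. Leaving them out also changes the mix of cells at each time, and the part of this in the call was not tested. Within clusters 10 and 5, where Apcdd1 was highest, its ratios were 0.791 and 0.745.

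In cluster 10, 0 of 9 members met the size rule, where 2.48% of 9429 genes did. The ratios were 0.995 for Lef1 (0.895 to 1.10), 1.06 for Tcf7, 1.19 for Axin2, 1.03 for Lgr4, 0.843 for Lgr6 and 1.04 for Notum, all with intervals that held 1. Apcdd1 had a ratio of 0.791 (0.719 to 0.870), and Sostdc1, low in these cells, 1.57 (1.15 to 2.14). Wif1 lay furthest from 1, at 19.5 CPM at ZT12 and 37.3 CPM at ZT0 with a ratio of 0.524 (0.354 to 0.762). In finer cluster 17, which holds part of cluster 10, Wif1 stood the other way, at 30.5 CPM at ZT12 (21.8 to 41.6) and 22.3 CPM at ZT0 (16 to 30.1), with intervals that overlapped. Of the Wif1 UMIs of cluster 10, finer cluster 17 held 40 of 40 at ZT12 and 42 of 101 at ZT0. In cluster 15 Wif1 had 10 UMIs in 3 of 34 ZT12 cells and 0 UMIs in 34 ZT0 cells. In cluster 5, 1 of 9 members met the rule, where 1.01% of 8726 genes did. This was Wif1, at 2.61 CPM at ZT12 (15 UMIs in 9 of 183 cells) and 11.4 CPM at ZT0 (52 UMIs in 17 of 107 cells), with a ratio of 0.228 (0.119 to 0.411). Lef1 had a ratio of 0.994 (0.919 to 1.07) and Notum of 0.974 (0.820 to 1.16) in cluster 5, while Axin2 was lower at ZT12 with a ratio of 0.674 (0.564 to 0.806). Cluster 10 made up 3.66% of ZT12 cells and 6.59% of ZT0 cells, and cluster 5 made up 6.98% and 6.72%.

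**Figure D4:**
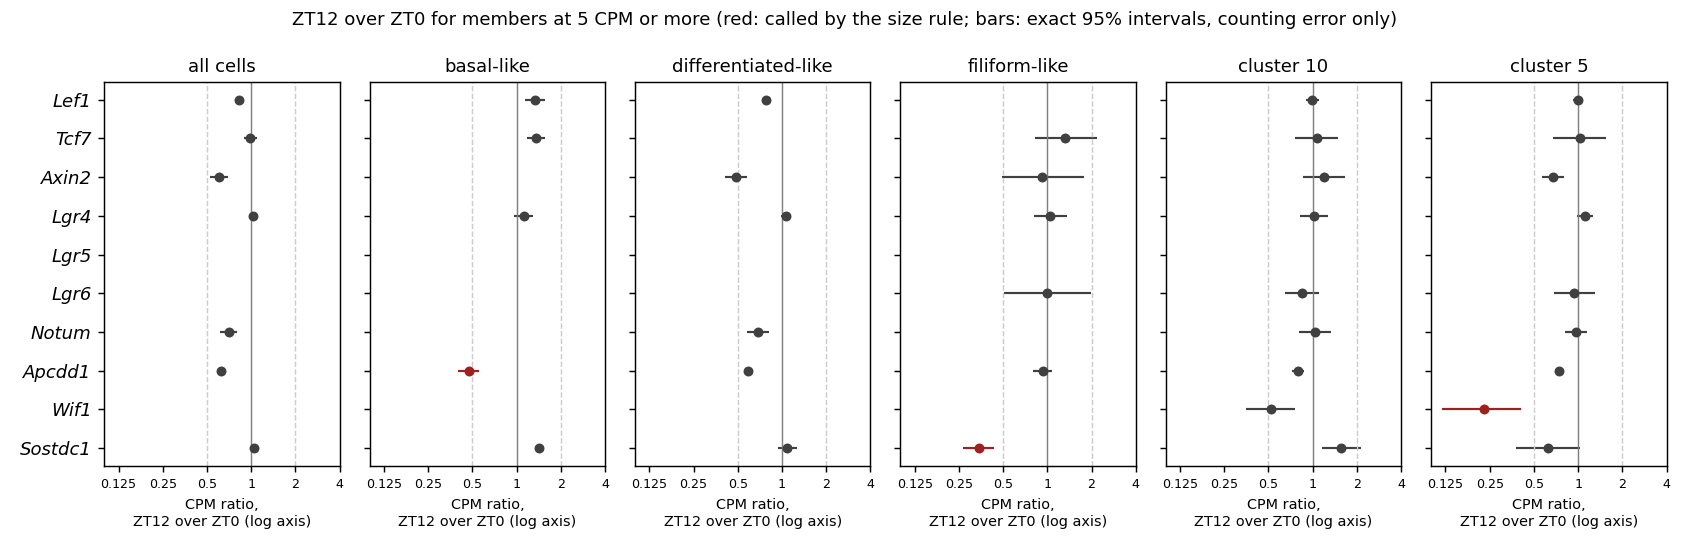
CPM ratio of ZT12 over ZT0 (log axis) for members at 5 CPM or more in all cells, 3 classes and clusters 10 and 5, with exact 95% intervals for counting error. Red marks members that met the size rule, which are Apcdd1 in basal-like cells, Sostdc1 in filiform-like cells and Wif1 in cluster 5, and solid and dashed lines mark ratios of 1 and of 0.5 and 2.

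In the basal-like class (741 cells at ZT12, 436 at ZT0), which leaves out cluster 10, 1 of 5 members at 5 CPM or more met the size rule, where 1.73% of 9602 genes did. Apcdd1 stood at 17.9 CPM at ZT12 (246 UMIs in 150 cells) and 37.7 CPM at ZT0 (375 UMIs in 139 cells), a ratio of 0.474 (0.402 to 0.559). Sostdc1 was at 372 CPM at ZT12 and 262 CPM at ZT0 (ratio 1.42), Tcf7 at 41.2 CPM at ZT12 and 30.5 CPM at ZT0 (ratio 1.35) and Lef1 at 33.6 CPM at ZT12 and 25.3 CPM at ZT0 (ratio 1.33). The class holds clusters 3 and 7 at both times, but cluster 4 came mostly from ZT12 and cluster 8 mostly from ZT0. Without clusters 4 and 8 Apcdd1 still met the rule, at 29.7 CPM at ZT12 and 60.9 CPM at ZT0 (ratio 0.487, 0.407 to 0.582). The whole class was also taken without the cell with most Apcdd1 UMIs in each library, which held 10 UMIs at ZT12 and 34 at ZT0. The ratio was then 0.5 and Apcdd1 no longer met the rule.

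No member met the rule in cluster 2 (1.14% of genes did), cluster 3 (2.03%), cluster 7 (2.62%) or cluster 11 (2.58%).

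Differences in Apcdd1 had the same direction in most of the epithelium. In the 12 clusters with at least 20 cells in each library and a mean of 5 CPM or more, its ratio lay below 1 with the interval leaving out 1 in 8 and above 1 in 0, and the interval held 1 in 4. In cluster 7 it stood at 45.5 CPM at ZT12 and 91.6 CPM at ZT0 and in cluster 3 at 23.1 CPM at ZT12 and 41.8 CPM at ZT0. In clusters 14 and 6 the ratios were 1.14 and 1.14, with intervals that held 1. Lef1, for comparison, had an interval that held 1 in 8 of 9 such clusters. All clusters come from the same 2 libraries, so they are not separate observations. The share of all genes with as many clusters on 1 side was not computed. Among the 9 clusters with at least 50 cells in each library, cluster 1 alone took Apcdd1 past the size rule (7.32 CPM at ZT12 and 16.2 CPM at ZT0, where 1.95% of 8607 genes met it), and there also the call was lost without the highest cell of each library.

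Sostdc1 had no common direction. In 11 clusters with at least 20 cells in each library, its ratio interval lay above 1 in 3, below 1 in 4 (among them cluster 15 at 0.470 and cluster 9 at 0.669) and held 1 in 4. In clusters 7 and 3 it was higher at ZT12, with ratios of 1.67 (1.55 to 1.81) and 1.36 (1.28 to 1.45), under the 2-fold limit. Cluster 7 held 134 ZT12 cells and 92 ZT0 cells, of which 117 and 76 carried it. In the filiform-like class (185 cells at ZT12, 117 at ZT0) it was the 1 member of 6 to meet the size rule, where 1.52% of 9006 genes did, at 27.5 CPM at ZT12 and 80.4 CPM at ZT0. That value rested on a single ZT0 cell of cluster 14, which held 163 of the 225 ZT0 UMIs. Without the highest cell of each library the levels were 20.4 CPM at ZT12 and 22.6 CPM at ZT0, with a ratio of 0.905 and no call. In cluster 0 Sostdc1 also met the rule (11.8 CPM at ZT12 and 26.7 CPM at ZT0, where 2.34% of 9105 genes did), and 24 of its 65 ZT0 UMIs lay in 1 cell, without which it did not.

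**Figure D5:**
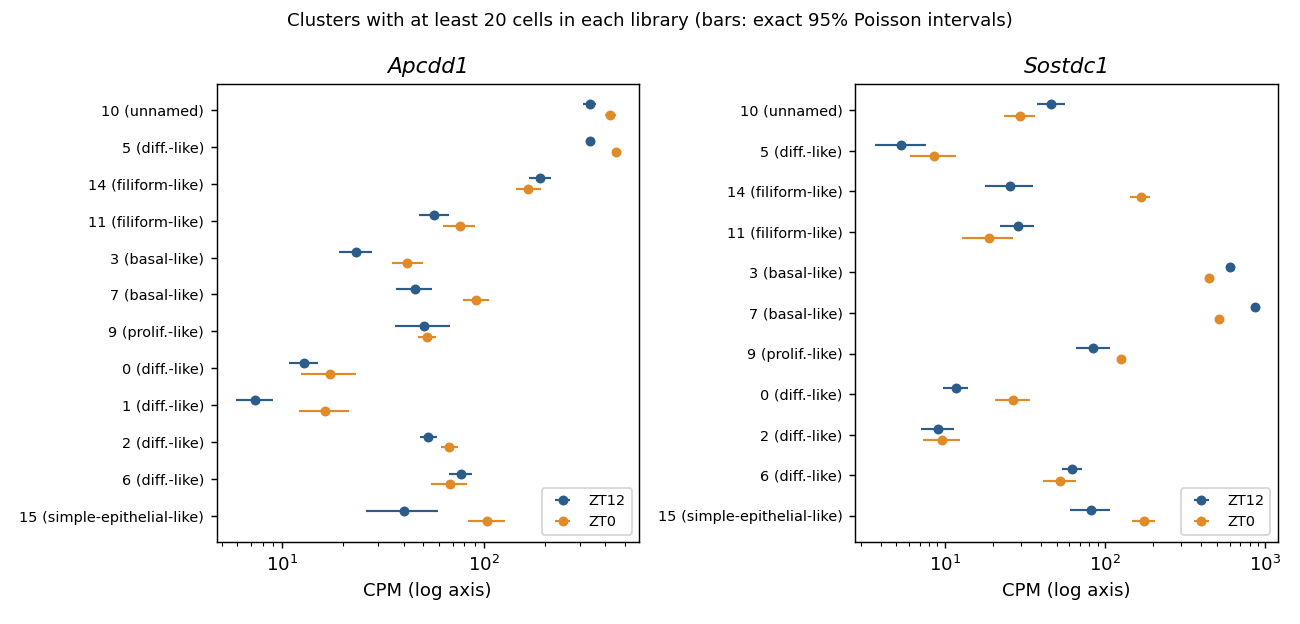
Levels (CPM, log axes) of Apcdd1 (left) and Sostdc1 (right) in clusters with at least 20 cells in each library and a mean of 5 CPM or more, ZT12 (blue) above ZT0 (orange), with exact 95% Poisson intervals. The ratio of ZT12 over ZT0 for Apcdd1 has an interval below 1 in 8 of 12 clusters. Sostdc1 has ratio intervals above 1 in clusters 3, 7 and 10 and below 1 in clusters 0, 9, 14 and 15. In cluster 14 a single ZT0 cell holds most of the Sostdc1 UMIs.

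In the differentiated-like class (1485 cells at ZT12, 682 at ZT0) 0 of 6 members met the size rule, where 1.4% of 8956 genes did. Axin2 stood at 5.38 CPM at ZT12 and 11.1 CPM at ZT0 (ratio 0.486, 0.408 to 0.579) and Apcdd1 at 62.6 CPM at ZT12 and 107 CPM at ZT0 (ratio 0.587). Without the 1-library cluster 12 of this class, Axin2 stood at 5.38 CPM at ZT12 and 15.1 CPM at ZT0 and Apcdd1 at 62.6 CPM at ZT12 and 144 CPM at ZT0, and both met the rule. Axin2 in this class lay mostly in cluster 5, which made up 183 of its 1485 ZT12 cells and 107 of its 682 ZT0 cells. Leaving out cluster 12 (1 cell at ZT12, 172 at ZT0) changes the mix of cells mainly at ZT0. The part of this in the 2 calls was not tested. Within cluster 5 the ratios were 0.674 for Axin2 and 0.745 for Apcdd1.

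Cluster 6, differentiated-like cells led by Krt42 and Krt17 (170 cells at ZT12, 82 at ZT0), was the one group in which members were called higher at ZT12, 2 of 5, where 2.65% of 9123 genes met the rule. Lef1 stood at 27 CPM at ZT12 and 7.68 CPM at ZT0, and Lgr4 at 22.2 CPM at ZT12 and 10.5 CPM at ZT0. Lef1 was carried by 32 ZT12 cells and 5 ZT0 cells, and 7 of its 11 ZT0 UMIs lay in 1 cell. Both calls held without the highest cell of each library. This cluster had the second largest share of its cells, 15.9%, among the top 5% of cells by doublet score, beside 9.95% in cluster 10 and 9.66% in cluster 5, and the part of doublets in these values was not tested.

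Of the other pathway genes, 54 were at 5 CPM or more over all cells, and Igfbp4 alone met the size rule, higher at ZT12 at 67.2 CPM against 22.8 CPM at ZT0. IGFBP4 binds insulin-like growth factors and has also been described to inhibit Wnt receptors. In basal-like cells Igfbp4 was again higher at ZT12 (171 CPM, against 62.6 CPM at ZT0) and Wnt16 lower (2.69 CPM, against 9.35 CPM at ZT0), of 61 genes tested. In differentiated-like cells Igfbp4 was called alone of 53 genes, in cluster 5, 0 of 47 were, and in cluster 10 Fzd5 was called of 57, lower at ZT12 at 4.39 CPM against 10.3 CPM at ZT0. In filiform-like cells Pygo1 was called of 56, at 3.58 CPM at ZT12 and 8.22 CPM at ZT0. Within single clusters, Igfbp4 was also called higher at ZT12 in clusters 0, 1, 2 and 3. In cluster 0, Wnt16 (ratio 0.174) and Dkk3 (ratio 0.281) were lower at ZT12. The receptor gene Fzd7 (ratio 2.36) and the cyclin gene Ccnd1 (ratio 2.61) were higher at ZT12 in cluster 1, and Bambi (ratio 2.11) in cluster 3. Sox9, a transcription factor gene listed as a common target, was higher at ZT12 in cluster 2 (ratio 2.52) and lower in cluster 6 (ratio 0.360). In cluster 6, Fzd10 was also lower (ratio 0.438) and Bcl9 higher (ratio 2.46).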

How the data were processed

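The deposited files hold UMI counts, whole numbers per gene and cell barcode, made by the authors with Cell Ranger. The submitters' processing notes name Cell Ranger 2.1.1 and mm10, whereas the matrix headers name Cell Ranger 4.0.0. The 10 members and all gene lists were chosen with earlier results of these data known.

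Barcodes with under 500 genes or 10% or more mitochondrial UMIs were left out (191 of 2819 at ZT12, 129 of 1726 at ZT0). Scrublet called 6 doublets at ZT12 and 4 at ZT0 (0.228% and 0.25%), which is too few to have worked, so doublets were in effect not removed. Cells were clustered with scanpy 1.11.5 and leidenalg 0.10.2 (2000 variable genes without the members and the Wnt pathway list, 30 components, 15 neighbours, resolution 1.0). UMIs were summed per library and cluster and divided by the total. Ratios carry exact conditional binomial 95% intervals, levels exact Poisson ones and shares exact Clopper-Pearson ones, computed with scipy 1.17.1. The size rule used a pseudocount of 1 CPM, and its calculation was tested on simulated data. TMM factors, tried as an alternative, came from edgeR 4.0.16.

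All members are named. The rule for other pathway genes named those meeting the size rule in a comparison and up to 4 per role with the highest CPM. Wnt3, Wnt5a, the Rspo genes, Dkk1, Dkk2, Frzb, Sost, Trabd2b, Znrf3, Rnf43, Tnfrsf19 and Ascl2 were named after their values were seen. Likeness took the 5 genes of highest r per member with at least 200 UMIs. Alternatives changed the cell filter, doublets, scaling, minimum level, pseudocount, summing, clusters, resolution and genes clustered. Leaving out the highest cell of each library, joining cluster 10 to the basal-like class and leaving out cluster 5 were chosen after seeing the data.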

Additional observations from a re-analysis of the deposited data

Results flagged for a closer look

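The ZT12 over ZT0 ratio of Sostdc1 had opposite signs in 2 groups of cells. In cluster 7, Sostdc1 stood at 866 CPM at ZT12 and 518 CPM at ZT0, a log2 ratio of 0.74. In the filiform-like class it stood at 27.5 CPM at ZT12 and 80.4 CPM at ZT0, a log2 ratio of -1.51. The difference between these groups was not tested, since each time has 1 library. In the filiform-like class 1 ZT0 cell held 163 of 225 UMIs, and without the highest cell of each library the levels were 20.4 CPM at ZT12 and 22.6 CPM at ZT0 (ratio 0.905, 0.636 to 1.29). In cluster 7 the ratio without the highest cells was 1.75.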

How the results depend on the processing

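The number of members past the size rule depended on the processing. In basal-like cells it was 1, and it was 0 with every barcode, with TMM scaling, with a minimum of 50 CPM, with a pseudocount of 5 CPM, with a mean over cells, at resolution 0.5, with the members left in the genes clustered and without the highest cell of each library, and it was 2 with cluster 10 joined. Over all cells it was 0, and it was 1 with a minimum of 1 CPM and 1 without the clusters mostly of 1 library. In differentiated-like cells it was 0, and it was 1 with the stricter cell filter of 1000 genes and 5% mitochondrial UMIs, 1 with a minimum of 1 CPM, 1 with a pseudocount of 0.1 CPM and 2 without the clusters mostly of 1 library. In filiform-like cells it was 1, and it was 0 at resolutions 0.5 and 1.5 and without the highest cell of each library, where the log2 ratio of Sostdc1 turned from -1.51 to 0.43 at resolution 0.5 and 0.38 at resolution 1.5. Apart from the highest cells, whose values are given with the results, the cause was not tested. The share of cells with Lef1 in its highest cluster was 81.9%, and it was 96.3% at resolution 0.5, 97.6% at resolution 1.5 and 94.2% with the members left in the genes clustered. Of 425 member ratios under alternatives, 361 moved by less than their counting error, 62 moved more and 2 reversed after meeting the size rule, while 30 changed sign in all. With 1 library per time, differences between animals and between times cannot be told apart, and Lgr5 and Wif1 rest on few UMIs. No paired analysis was possible because each time has 1 library.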
